A study of Phlebiopsis gigantea with 8 samples.

Results

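Phlebiopsis gigantea is a white-rot basidiomycete that colonizes freshly cut conifer wood, and the comparison described here set its transcripts on unextracted pine wood against its transcripts on glucose. The members are all gene models of the deposited RPKM table (reads scaled to transcript length and to the mapped reads of the library), so 11891 of 11891 models with values entered, in 5 of the 8 RNA-seq libraries of the series. The 3 libraries of the wood medium, NELP (non-extracted loblolly pine), came from separate cultures in 250 ml of basal salts with freshly harvested, finely ground loblolly pine wood (Pinus taeda) that had been wetted with acetone and dried, so that resin and fats stayed in the wood. Each wood culture held 2.5 g of wood per the labels, which is more than the study's own methods state. The 2 reference libraries, Glc, came from duplicate cultures in basal salts with glucose as the only carbon source, at a concentration that neither the labels nor the study's methods give. Mycelium was harvested at day 5 in both media. A further 3 libraries from acetone-extracted wood (ELP) enter only where stated. The labels name no strain and no altered gene, and the gene models are those of the sequenced strain, which was grown from a single basidiospore.

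Wood is built of cellulose fibrils set in hemicelluloses, pectin and lignin, and conifer wood also holds resin acids, terpenes and triglycerides. White-rot fungi degrade cellulose outside the cell, with cellobiohydrolases that work from the chain ends, endoglucanases that cleave within the chain, and lytic polysaccharide monooxygenases (LPMOs, annotated here as GH61) that cleave it by oxidation, for which cellobiose dehydrogenase can supply electrons. Lipases release fatty acids from triglycerides, and cytochrome P450 monooxygenases, dehydrogenases and glutathione transferases act on small hydrophobic compounds. Easily used sugars such as glucose are known to repress many of the genes for plant cell wall degradation in filamentous fungi. GH, CE and GT below stand for families of glycoside hydrolases, carbohydrate esterases and glycosyltransferases.

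The libraries of each medium were not alike in spread. The read steps of the low values gave about 10200000 to 18200000 reads for NELP, 7870000 for Glc 1 and 14000000 for Glc 2, so 1 read over 1 kb was worth 0.0549 to 0.127 RPKM. Correlations of log2 values over genes, which are not independent replicates, were 0.974 to 0.982 between NELP libraries but 0.829 between Glc 1 and Glc 2, and 35.2% of genes differed by over 2-fold between the Glc libraries. The 10 most abundant models took 8.55 to 10.5% of summed RPKM in NELP, 15.1% in Glc 1 and 22.6% in Glc 2. The median model stood at 21.8 to 23.8 RPKM in NELP against 12.3 and 16.3 RPKM in Glc. RPKM values are shares of a library, so a change in the total RNA of the mycelium cannot be seen in them. In each list of values below, libraries stand in numerical order, NELP 1 to 3 and then Glc 1 and 2.

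Of 10977 genes that averaged 1 RPKM or more, 825 (7.52%) were higher and 120 (1.09%) lower in NELP than in Glc at an adjusted p under 0.05 (limma on log2(RPKM + 0.5), Benjamini-Hochberg over all genes tested). Among genes with a function name other than hypothetical, the 825 were led by secreted cellulases, LPMOs, a class 3 lipase, an aquaporin and an M35 metallopeptidase. The 120 were led among such genes by an expansin family protein, transporters, peptidases and a copper radical oxidase. The hypothetical Phlgi1_271517 and the unnamed Phlgi1_129398 fell further than that expansin (log2 fold changes -7.03 and -5.89). In all 945 called genes the 3 NELP values lay on 1 side of both Glc values. That was also so for 5441 of all tested genes upward (49.6%) and 873 downward (7.95%), and an exact permutation of 3 against 2 libraries has 10 splits and cannot go below a one-sided p of 0.1. The median log2 fold change of all tested genes was 0.54, and rescaling the libraries by their median ratios moved it by 0.56, to -0.014. After rescaling, 116 genes (1.06%) were called higher and 123 (1.12%) lower, so that the share of higher genes among those called was 87.3% as deposited and 48.5% rescaled. On both scales 116 genes were higher and 95 lower, and the calls named below held on both unless a rescaled adjusted p above 0.05 is printed.

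The number of calls rested on the libraries of both media. Without NELP 1 or without NELP 3 limma called 0 genes in each direction, with 2216 and 2377 higher and 313 and 277 lower at an unadjusted p under 0.05, and without NELP 2 it called 20 higher and 6 lower. Leaving out Glc 1 gave 2775 and 735 calls and leaving out Glc 2 gave 5397 and 1241, each time with all 825 and 120 among them, but the lone Glc library was then assumed to vary like the NELP libraries. With the ELP libraries in the same fit limma called 3237 genes (29.5%) higher and 412 (3.75%) lower. The median SD of log2 values was 0.194 among NELP and 0.509 among Glc libraries, a difference that the fit does not model, so the adjusted p-values may be too small where the Glc libraries lie far apart.

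**Figure D1:**
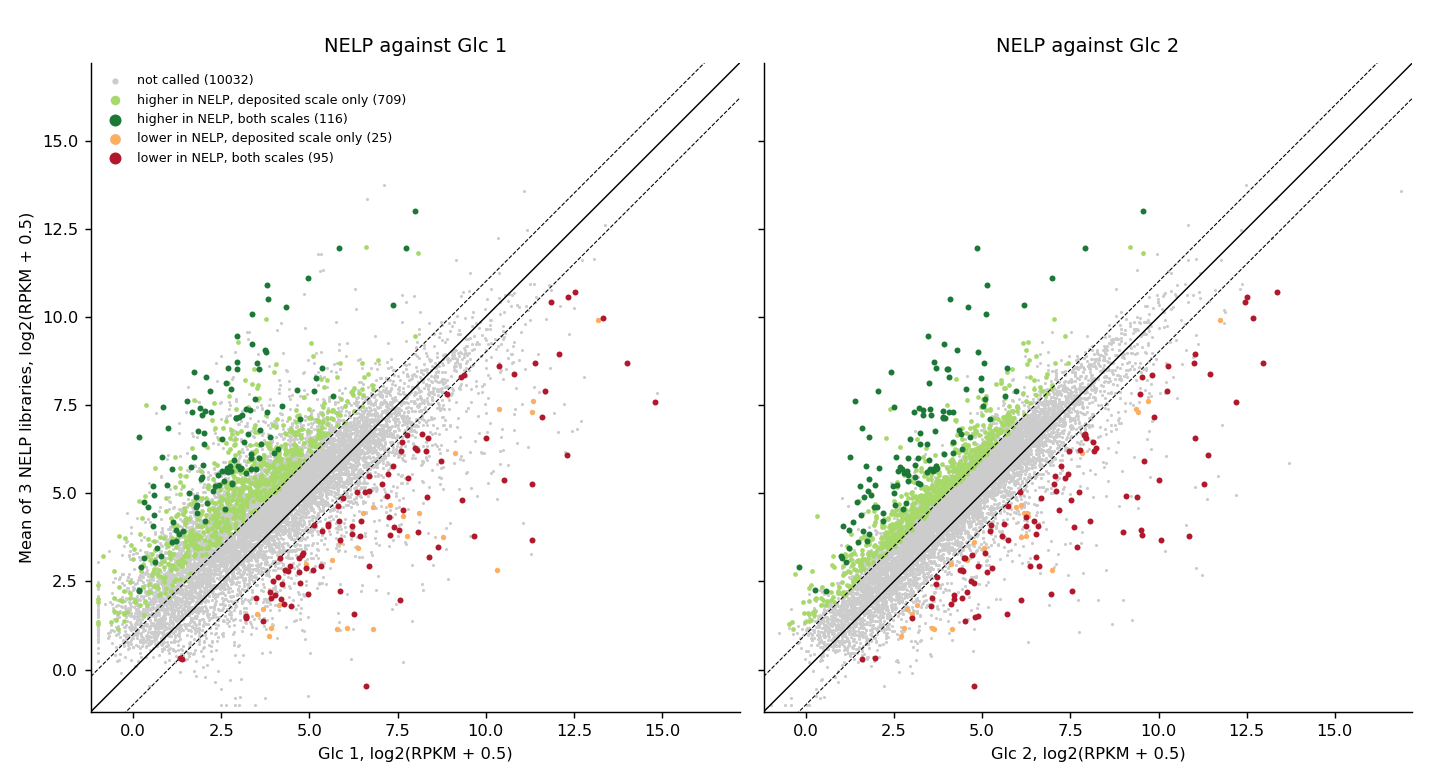
Mean log2(RPKM + 0.5) of the 3 NELP libraries plotted against Glc 1 (left) and Glc 2 (right) for the 10977 genes tested; the solid line is equality, dashed lines are 2-fold, and colours mark the calls on both scales or on the deposited scale only. Far more points lie above the upper 2-fold line against Glc 1 than against Glc 2, and genes called on both scales and on the deposited scale alone overlap in their distance from it.

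**Figure D2:**
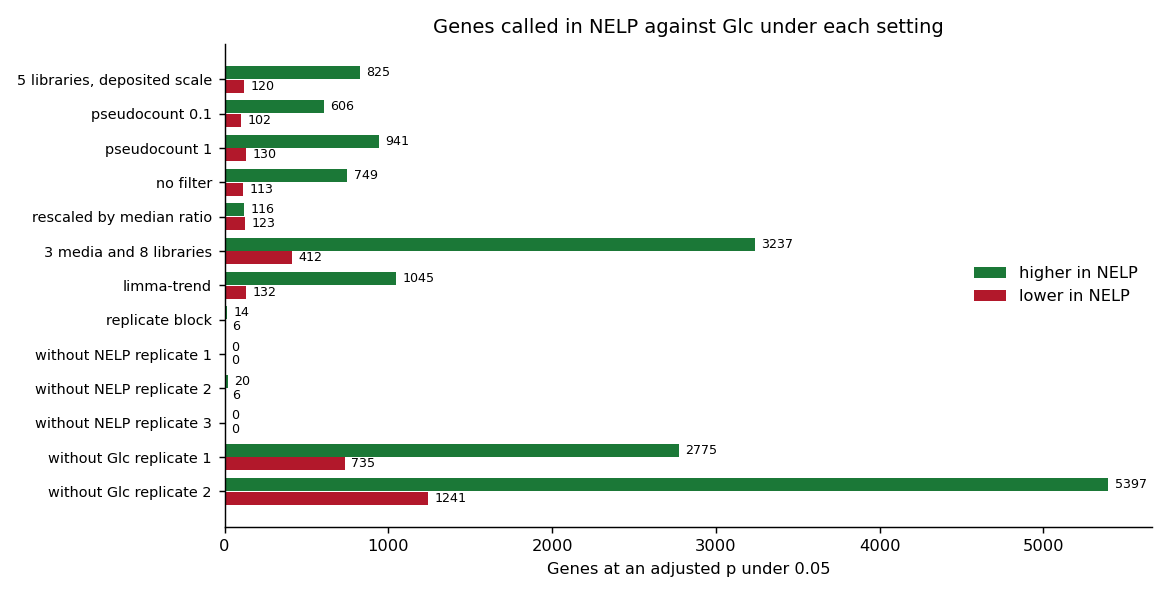
Number of genes called higher (green) and lower (red) in NELP under each setting, as bars from 0. Counts ranged from 0 without NELP 1 or NELP 3 to 5397 higher and 1241 lower without Glc 2.

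Cellulases were among the genes with the largest rises on wood. The cellobiohydrolase Phlgi1_34136 (GH7), an enzyme that releases cellobiose from chain ends, held 4059.8, 3009 and 4953 RPKM in NELP and 56.8 and 28.4 RPKM in Glc. It was among the 10 most abundant transcripts of NELP, and no NELP library came near either Glc library (log2 fold change 6.59 ± 0.40 SE, adjusted p = 0.0037). The GH6 gene Phlgi1_17701, whose family includes cellobiohydrolases that work from the other chain end, held 918, 491 and 757 RPKM on wood and 7.25 and 10.6 RPKM on glucose (log2 fold change 6.24 ± 0.36, adjusted p = 0.0037). The third of the group, Phlgi1_34479 (GH12, a family of endoglucanases), stood at 287, 135 and 196 RPKM on wood against 2.37 and 2.15 RPKM on glucose, and both Glc libraries were close to each other (log2 fold change 6.16 ± 0.37, adjusted p = 0.0037). The exoglucanase Phlgi1_13298 (GH7), named here after its values were seen, completed the 4 of 11 tested GH6, GH7, GH9, GH12 and GH45 genes that rose, with 404, 494 and 366 RPKM on wood and 7.21 and 11.8 RPKM on glucose (adjusted p = 0.0037), and all 4 were also called after rescaling. None fell, and the share that rose was 36.4%, against 7.52% of all genes (1.06% after rescaling). The remaining members were at lower levels in NELP. The GH9 gene held 59.9, 58.5 and 60.6 RPKM in NELP and 23.3 and 36.7 RPKM in Glc. The GH7 gene Phlgi1_191767 held 14.2, 9.88 and 11.3 RPKM in NELP and 2.22 and 9.04 RPKM in Glc. Summed RPKM of the 11 members was 5860.1, 4279 and 6468 in NELP and 154 and 127.1 in Glc.

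**Figure D3:**
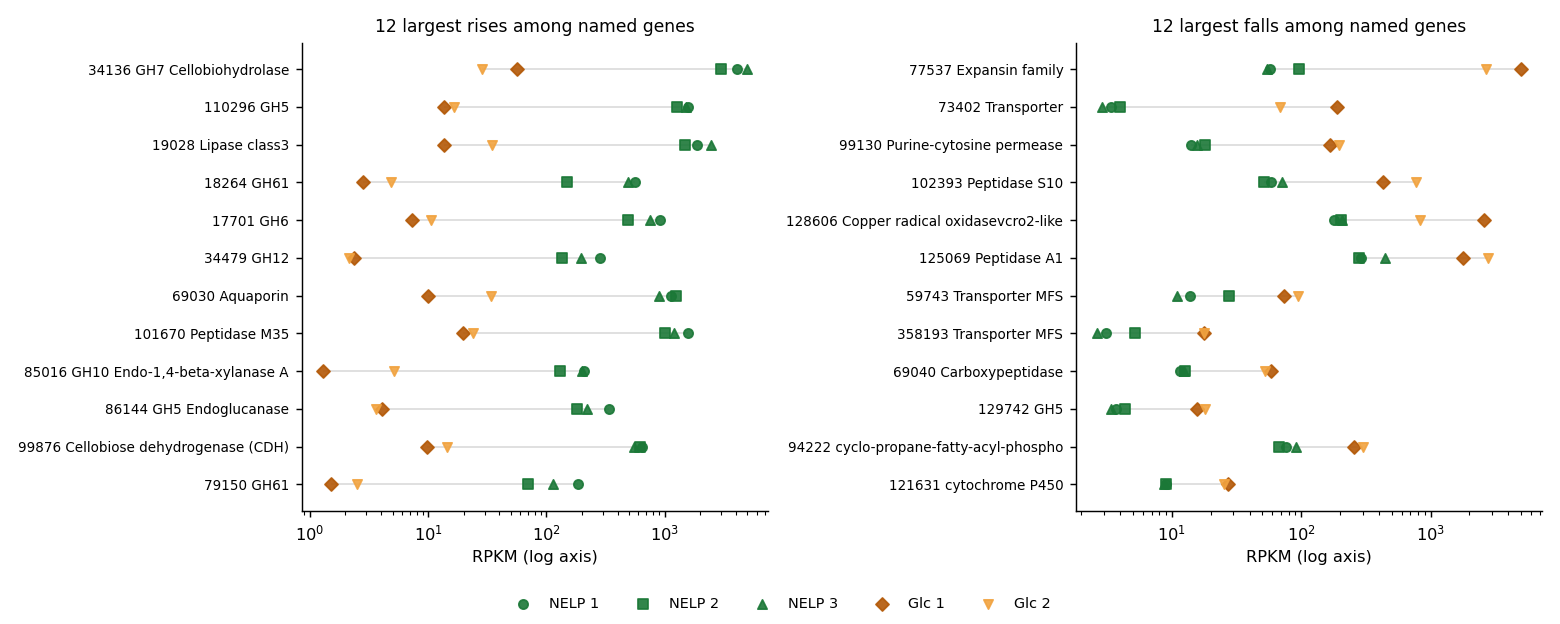
RPKM of each library on a log axis for the 12 genes with a function name and the largest rise (left) and the largest fall (right) among called genes with at least 10 RPKM in the higher medium and no overlap between media; green symbols are NELP 1 to 3, the dark diamond is Glc 1 and the light triangle Glc 2. The separation of NELP from both Glc symbols was a condition of the choice, while the gap between the Glc symbols differs from row to row.

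Among GH5 genes most of the calls were rises and 1 was a fall. Of 20 tested genes, 9 rose and 1 fell, or 45% and 5% against 7.52% and 1.09% of all genes. After rescaling 5 rose and 1 fell, when 1.06% and 1.12% of all genes were called. The median log2 fold change was 1.41 against 0.54 over all genes. The family holds endoglucanases and mannanases, and the most abundant member, Phlgi1_110296, went from 13.6 and 16.4 RPKM on glucose to 1579.9, 1273 and 1508 RPKM on wood. Its Glc libraries were nearly equal, and its adjusted p was the smallest found (log2 fold change 6.55 ± 0.25, adjusted p = 0.0022). The endoglucanase Phlgi1_86144 held 336, 182 and 219 RPKM on wood and 4.05 and 3.59 RPKM on glucose, and Phlgi1_97727 held 557, 491 and 568 RPKM on wood and 12.8 and 19.1 RPKM on glucose (log2 fold changes 5.78 ± 0.33 and 5.06 ± 0.28, adjusted p = 0.0037 and 0.0037). A single GH5 gene, Phlgi1_129742, was lower on wood, with 3.69, 4.39 and 3.43 RPKM against 15.8 and 17.98 RPKM (log2 fold change -2.01 ± 0.24, adjusted p = 0.025, rescaled 0.014).

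The oxidative part of cellulose degradation rose through a subset of its genes. Among 16 tested LPMO and cellobiose dehydrogenase genes, 7 were higher in NELP (43.8%, against 7.52% of all genes) and none lower. Of these, 6 were called on both scales, when 1.06% of all genes were called higher after rescaling. Cellobiose dehydrogenase, the single gene Phlgi1_99876, held 645, 618 and 546 RPKM in NELP and 9.84 and 14.5 RPKM in Glc, with little spread in either medium (log2 fold change 5.60 ± 0.27, adjusted p = 0.0037). The GH61 gene Phlgi1_18264 held 561, 148 and 489 RPKM on wood and 2.83 and 4.83 RPKM on glucose (log2 fold change 6.35 ± 0.64, adjusted p = 0.016), and Phlgi1_79150 held 185, 70.3 and 114 RPKM on wood and 1.5 and 2.52 RPKM on glucose (log2 fold change 5.54 ± 0.47, adjusted p = 0.012). NELP 2 was the lowest wood library for both, yet it stayed above both Glc libraries by more than 10-fold. The GH61 gene with the highest mean level, Phlgi1_37310, behaved otherwise: its NELP values of 2146, 1268 and 1704 RPKM overlapped its Glc values of 659.8 and 2282 RPKM, with Glc 2 above all wood libraries (adjusted p = 0.59).

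Genes that carry the fungal cellulose-binding domain, a module that holds an enzyme to the fibril, were looked at after their values had been seen. Of 24 tested genes with this domain description, 16 rose (66.7%, against 7.52% of all genes) and none fell, with a median log2 fold change of 3.63. Of the 16, 12 also rose after rescaling, when 1.06% of all genes were called higher. Their summed RPKM was 8189, 5618 and 8514 in NELP and 295 and 249.99 in Glc, and Phlgi1_34136 held the largest part of it in NELP. They span several families, among them GH5, GH6, GH7, GH10, GH61 and GH74. The exception with the lowest fold change was the GH10 gene Phlgi1_25162, with 10.6, 9.12 and 7.52 RPKM in NELP against 109 and 25.1 RPKM in Glc, which did not pass the test (adjusted p = 0.061).

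Hydrolases of hemicellulose and pectin also rose in part. Over all plant polysaccharide hydrolases 37 of 79 tested genes were higher and 1 lower, or 46.8% and 1.27% against 7.52% and 1.09% of all genes. After rescaling 18 were higher and 1 lower, when 1.06% and 1.12% of all genes were called. The list's share of summed RPKM was 1.28 to 1.75% in NELP against 0.146 and 0.186% in Glc. The xylanase Phlgi1_85016 (GH10), which cleaves the xylan backbone, held 208, 129 and 199 RPKM on wood and 1.29 and 5.16 RPKM on glucose (log2 fold change 5.79 ± 0.54, adjusted p = 0.014). Phlgi1_98770 (GH74, a family acting on xyloglucan), named after its values were seen, held 365, 345 and 413 RPKM on wood and 5.99 and 12.3 RPKM on glucose (adjusted p = 0.0048). All wood values of both genes lay far above the Glc values. For pectin, 3 of 10 tested GH28 genes rose (30%, against 7.52% of all genes), 1 of them on both scales, and none fell. The genes that rose stayed at low levels: the most abundant, Phlgi1_131121, held 41.7, 41.4 and 47.8 RPKM against 3.37 and 8.08 RPKM (log2 fold change 2.93 ± 0.39, adjusted p = 0.028).

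Of esterases and lyases that trim side groups, 3 of 25 (12%, against 7.52% of all genes) were higher and none lower, and 1 was higher after rescaling. The CE16 gene Phlgi1_103464, which carries a cellulose-binding domain, held 70.6, 44.004 and 47.7 RPKM on wood and 2.64 and 5.92 RPKM on glucose (log2 fold change 3.57 ± 0.41, adjusted p = 0.022). The most abundant member, Phlgi1_18836 (CE16), showed 823, 593 and 911 RPKM on wood, while its Glc values of 8.85 and 183 RPKM lay far apart, and it did not pass the test (adjusted p = 0.072).

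Hydrolases for storage and cell wall glucans of the fungus included a few strong rises. Of 19 tested genes for starch, glycogen and trehalose, 4 rose (21.1%, against 7.52% of all genes) and none fell, and 2 rose on both scales. The glucoamylase Phlgi1_128120 (GH15), which releases glucose from starch or glycogen, held 182, 139 and 195 RPKM in NELP and 3.20 and 8.75 RPKM in Glc (log2 fold change 4.87 ± 0.44, adjusted p = 0.014). Among 64 tested glucanases and chitinases of the fungal wall, 9 (14.1%) were higher and 1 lower, and 2 and 2 after rescaling. The exo-beta-1,3-glucanase Phlgi1_88425 (GH55) held 173, 131.5 and 144.9 RPKM on wood and 3.39 and 9.47 RPKM on glucose, and the chitinase Phlgi1_88507 (GH18) held 487, 331 and 425 RPKM on wood and 10.9 and 32.8 RPKM on glucose (log2 fold changes 4.58 ± 0.44 and 4.39 ± 0.50, adjusted p = 0.015 and 0.022). Both rises held on both scales, with Glc 2 the nearer of the Glc libraries.

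Lipases included some of the largest rises outside the carbohydrate enzymes. Of 33 tested lipase genes 8 rose (24.2%, against 7.52% of all genes) and none fell, but 3 were called after rescaling. The median log2 fold change of the list, 0.61, was close to that of all genes. The class 3 lipase Phlgi1_19028, of a family that includes triglyceride lipases, held 1878, 1477 and 2480.0 RPKM in NELP and 13.6 and 34.7 RPKM in Glc. Every wood library exceeded both glucose libraries by more than 10-fold, and the log2 fold change was 6.42 ± 0.47 (adjusted p = 0.0067, rescaled 0.0099). Phlgi1_32096, named Lipase 4, held 56.6, 40.6 and 61.02 RPKM on wood and 2.01 and 9.09 RPKM on glucose and passed only on the deposited scale (log2 fold change 3.42 ± 0.59, adjusted p = 0.040, rescaled 0.069).

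Genes that use fatty acids inside the cell were called at about the share of all genes. Of 24 tested genes for fatty acid activation and beta-oxidation, 2 (8.33%, against 7.52% of all genes) rose, neither after rescaling, and none fell. The long chain fatty acid CoA ligase Phlgi1_126556, which activates fatty acids, held 67.5, 79.2 and 96.1 RPKM against 17.9 and 23.2 RPKM (log2 fold change 1.95 ± 0.28, adjusted p = 0.033, rescaled 0.068), and the beta-ketothiolase Phlgi1_27649, which acts at the last step of a round of beta-oxidation, held 138, 138 and 146 RPKM against 48.9 and 59.5 RPKM (adjusted p = 0.040, rescaled 0.11). The most abundant thiolase-domain gene, Phlgi1_18225, was not called, with 241, 297 and 315 RPKM in NELP and 398 and 349 RPKM in Glc (adjusted p = 0.28). In the glyoxylate shunt and TCA cycle 2 of 28 tested genes (7.14%) rose on the deposited scale. After rescaling limma called 0, with 1 higher and 1 lower at an unadjusted p under 0.05 (1354 and 1334 over all genes). The malate dehydrogenase Phlgi1_19452 was among the 2, with 309, 319.9 and 377 RPKM against 101 and 114 RPKM (adjusted p = 0.035, rescaled 0.085). Pyruvate carboxylase, Phlgi1_128858, which refills the cycle with oxaloacetate, held 119, 161 and 172 RPKM on wood and 25.8 and 54.2 RPKM on glucose (log2 fold change 1.98 ± 0.39, adjusted p = 0.045, rescaled 0.099).

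Among enzymes that act on small compounds, single genes rose. The share called higher was near that of all genes for P450 genes and below it for antioxidant genes. Among 122 tested cytochrome P450 genes 8 were higher and 1 lower, or 6.56% and 0.820% against 7.52% and 1.09% of all genes. After rescaling 3 were higher and 1 lower, when 1.06% and 1.12% of all genes were called. Phlgi1_20514, named CYP503 in the deposited values but placed in another P450 family by the paper, led the rises. It held 324, 389.8 and 394 RPKM on wood and 11.5 and 15.9 RPKM on glucose, tight within each medium (log2 fold change 4.71 ± 0.27, adjusted p = 0.0037). Phlgi1_89373 held 58.0, 40.9 and 58.5 RPKM on wood and 5.89 and 3.74 RPKM on glucose and also held on both scales (log2 fold change 3.33 ± 0.32, adjusted p = 0.014). Of 69 tested glutathione, thioredoxin and antioxidant genes, 1 was higher and 2 lower (1.45% and 2.90%), with none called after rescaling. The higher one, the glutathione S-transferase Phlgi1_129073, which couples compounds to glutathione, showed 927, 1135 and 899 RPKM in NELP, but its Glc values of 13.2 and 131.1 RPKM lay far apart (adjusted p = 0.0459, rescaled 0.082). The lower ones were the thioredoxin-like fold gene Phlgi1_23447, with 1.82, 2.11 and 1.38 RPKM on wood and 66.8 and 11.5 RPKM on glucose, and the glutathione S-transferase domain gene Phlgi1_72050, with 2.80, 3.11 and 3.21 RPKM on wood and 16.98 and 8.32 RPKM on glucose (adjusted p = 0.044 and 0.044, rescaled 0.065 and 0.055). The aldehyde dehydrogenase Phlgi1_115040 held 112.9, 102 and 90.5 RPKM on wood and 9.02 and 20.7 RPKM on glucose, and the xylose reductase Phlgi1_99086, the entry to xylose use in many fungi, held 66.2, 66.99 and 72.9 RPKM on wood and 9.65 and 14.7 RPKM on glucose (log2 fold changes 2.84 ± 0.39 and 2.48 ± 0.27, adjusted p = 0.032 and 0.021, both also called after rescaling).

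The most abundant alcohol dehydrogenase, Phlgi1_36265, had a large mean difference that did not pass the test. It held 3751, 2976 and 3880.2 RPKM in NELP and 37.1 and 999 RPKM in Glc, so Glc 2 stood between Glc 1 and the wood libraries (log2 fold change 4.18 ± 1.31, adjusted p = 0.083). The groups did not overlap, but the fold between the Glc libraries was larger than the fold from Glc 2 to any wood library.

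Single transport genes were among the largest rises and falls. The aquaporin Phlgi1_69030, a channel for water or small solutes, held 1128, 1241 and 898 RPKM in NELP and 9.90 and 34.2 RPKM in Glc (log2 fold change 5.83 ± 0.54, adjusted p = 0.014). Of 20 sugar transporters, only the hexose transporter Phlgi1_98430 was called (5%, against 7.52% of all genes), with 1960.0, 2273 and 2429 RPKM against 30.9 and 126.6 RPKM (log2 fold change 5.13 ± 0.60, adjusted p = 0.023). Both were more than 10-fold higher in each wood library than in either glucose library and held on both scales. Among 135 other major facilitator genes, 14 rose and 3 fell (10.4% and 2.22%, against 7.52% and 1.09% of all genes), with 3 and 3 after rescaling. Phlgi1_69667 held 179, 239.6 and 191 RPKM on wood and 10.5 and 33.1 RPKM on glucose, while Phlgi1_358193 held 3.13, 5.20 and 2.66 RPKM on wood and 17.7 and 17.8 RPKM on glucose (log2 fold changes 3.39 ± 0.50 and -2.18 ± 0.33, adjusted p = 0.035 and 0.035). ABC proteins, pumps and related ATPases, had 7 of 54 members higher (13%, against 7.52% of all genes) and none lower. After rescaling limma called 0, with 11 higher and 3 lower at an unadjusted p under 0.05 (1354 and 1334 over all genes). The higher calls were led by the ABC-G gene Phlgi1_130987 with 81.3, 61.8 and 93.8 RPKM on wood and 2.66 and 10.1 RPKM on glucose (adjusted p = 0.034, rescaled 0.0502).

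Nitrogen-related transporters were near the background, with 5 of 52 higher and 1 lower, or 9.62% and 1.92% (0 and 1 after rescaling). The oligopeptide transporter Phlgi1_34454 held 377, 391 and 579 RPKM on wood and 123 and 79.4 RPKM on glucose (adjusted p = 0.036, rescaled 0.097). The lower member of the list, the amino acid permease-domain gene Phlgi1_131234, held 27.03, 27.6 and 28.02 RPKM against 642 and 183 RPKM (log2 fold change -3.61 ± 0.54, adjusted p = 0.035). Outside the list, the purine-cytosine permease Phlgi1_99130, a carrier of nucleobases, was lower too, with 14.0, 18.1 and 15.8 RPKM against 168 and 195 RPKM (log2 fold change -3.47 ± 0.25, adjusted p = 0.0065). The NELP values of Phlgi1_131234 were nearly identical, and its Glc values were far apart but both many times higher.

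The shares of the peptidase list that were called were below or near those of all genes, but some members had large changes. Of 228 tested peptidase genes 10 rose and 3 fell, or 4.39% and 1.32% against 7.52% and 1.09% of all genes (3 and 3 after rescaling), with a median near that of all genes. The M35 metallopeptidase Phlgi1_101670 held 1560.2, 1002 and 1195 RPKM in NELP and 19.8 and 23.7 RPKM in Glc (log2 fold change 5.80 ± 0.29, adjusted p = 0.0037). The A1 aspartic peptidase Phlgi1_125069 held 289, 281 and 444 RPKM in NELP and 1796 and 2795 RPKM in Glc (log2 fold change -2.76 ± 0.35, adjusted p = 0.027). Both S10 serine carboxypeptidases among the largest falls, Phlgi1_102393 and Phlgi1_69040, which remove residues from the C-terminus, were lower on wood as well. Phlgi1_102393 held 58.3, 52.0 and 71.4 RPKM against 427 and 770.2 RPKM and Phlgi1_69040 held 11.6, 12.6 and 12.5 RPKM against 58.3 and 53.1 RPKM (log2 fold changes -3.24 ± 0.34 and -2.14 ± 0.23, adjusted p = 0.018 and 0.018). All 4 of these calls held after rescaling.

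The lower calls numbered 120 on the deposited scale and 123 after rescaling. Among genes with a function name other than hypothetical, the largest fall belonged to an expansin family protein. Expansin-related proteins loosen plant cell walls without hydrolysis. Phlgi1_77537 held 57.6, 96.1 and 54.8 RPKM in NELP and 5022 and 2693 RPKM in Glc (log2 fold change -5.76 ± 0.41, adjusted p = 0.0064). Another expansin family gene, Phlgi1_18613, was among the 10 most abundant transcripts of NELP at 5353, 4249.8 and 4805 RPKM, but its Glc libraries, at 1293 and 9536 RPKM, lay on both sides of them (adjusted p = 0.71). The copper radical oxidase Phlgi1_128606, whose family makes hydrogen peroxide outside the cell, held 178, 205 and 206 RPKM on wood and 2590.2 and 826 RPKM on glucose and just missed the threshold after rescaling (log2 fold change -2.90 ± 0.50, adjusted p = 0.040, rescaled 0.0506). The transporter Phlgi1_73402 fell from 191 and 68.2 RPKM to 3.39, 3.97 and 2.89 RPKM (log2 fold change -4.88 ± 0.47, adjusted p = 0.015). The cyclopropane-fatty-acyl-phospholipid synthase Phlgi1_94222, of a family that modifies membrane lipids, held 76.6, 67.8 and 91.1 RPKM against 255 and 301 RPKM (log2 fold change -1.82 ± 0.26, adjusted p = 0.033).

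Regulators formed a small part of the calls. Of 233 tested transcription factor genes 9 rose and none fell, below the background share on the deposited scale, and 1 was called after rescaling. That gene, the C2H2 zinc finger protein Phlgi1_123837, was the fourth most abundant transcript of NELP: it held 6674, 9209 and 9035 RPKM on wood and 253 and 749 RPKM on glucose (log2 fold change 4.24 ± 0.50, adjusted p = 0.023, rescaled 0.028). The share of the whole list in summed RPKM was 2.88 to 3.36% in NELP and 1.10 and 1.63% in Glc. The list summed to 23350, 24473 and 25449 RPKM in NELP, of which Phlgi1_123837 held the 6674, 9209 and 9035 RPKM given above. In Glc the list summed to 9837 and 14071 RPKM. Phlgi1_79048, annotated as like the stress regulator Msn2, held 439, 317 and 301 RPKM on wood and 15.5 and 51.7 RPKM on glucose (log2 fold change 3.59 ± 0.54, adjusted p = 0.035, rescaled 0.0502). Among 203 protein kinases 15 rose and none fell, close to the background, and after rescaling 0 were higher and 2 lower. The histidine kinase Phlgi1_507654, a sensor type of kinase, held 60.3, 62.5 and 51.9 RPKM against 6.18 and 16.8 RPKM (adjusted p = 0.041, rescaled 0.072).

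A part of the DNA replication genes rose, on the deposited scale only. Of 38 tested genes 11 (28.9%, against 7.52% of all genes) were higher and none lower, but limma called 0 after rescaling. At an unadjusted p under 0.05, 12 were then higher and 2 lower (1354 and 1334 over all 10977 genes). The rescaled median log2 fold change was 0.090. The MCM licensing factor Phlgi1_106347, part of the replicative helicase, held 10.4, 13.02 and 14.5 RPKM in NELP and 1.89 and 4.73 RPKM in Glc (adjusted p = 0.0483, rescaled 0.11). The catalytic subunit of DNA polymerase delta, Phlgi1_103803, held 29.1, 37.7 and 30.2 RPKM on wood and 10.3 and 7.49 RPKM on glucose (adjusted p = 0.035, rescaled 0.087), and the mitochondrial DNA polymerase gamma, Phlgi1_23079, held 18.3, 22.2 and 21.7 RPKM on wood and 3.28 and 7.48 RPKM on glucose (adjusted p = 0.044, rescaled 0.090). The log2 fold changes of these 3 genes were 1.88, 1.82 and 1.94.

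Several groups held no call on the deposited scale, and for the smallest of them 0 is near what the background of 7.52% gives. Class II peroxidases, which include the lignin and manganese peroxidases that attack lignin with hydrogen peroxide, had 0 of 10 tested genes called by limma on either scale. The most abundant, Phlgi1_32509, is a generic peroxidase that the paper lists apart from its lignin and manganese peroxidases. It held 40.6, 32.8 and 29.2 RPKM in NELP and 14.9 and 23.3 RPKM in Glc (adjusted p = 0.11). Values of the class II list were low in all libraries, apart from the manganese peroxidase Phlgi1_115592 in Glc 1, with 4.796, 5.23 and 2.92 RPKM on wood and 87.3 and 7.77 RPKM on glucose (adjusted p = 0.12). Dye-decolorizing and heme-thiolate peroxidases (8 tested) and multicopper oxidases (5 tested) likewise had 0 calls on either scale. Ribosomal proteins had 0 of 126, respiratory chain subunits 0 of 43 and secretory pathway genes 0 of 85 on the deposited scale, with median log2 fold changes of 0.18, -0.093 and 0.46. After rescaling 1 member of the respiratory chain list was lower, Phlgi1_14220, with an ATPase F1/V1/A1 domain, at 4.66, 6.14 and 5.87 RPKM on wood and 10.96 and 11.7 RPKM on glucose (adjusted p = 0.061, rescaled 0.0462). The other lists held 0 calls, and the rescaled medians of the ribosomal, respiratory and secretory lists were -0.40, -0.68 and -0.12. At an unadjusted p under 0.05, the higher and lower genes numbered 5 and 1 for class II peroxidases, 4 and 0 for the other peroxidases, 1 and 1 for multicopper oxidases, 5 and 2 for ribosomal proteins, 8 and 3 for respiratory chain subunits and 24 and 0 for secretory genes. After rescaling these numbers were 2 and 1, 1 and 2, 0 and 2, 0 and 14, 1 and 12 and 3 and 9 in the same order. Lower genes then outnumbered higher ones among ribosomal, respiratory and secretory genes. Over all 10977 tested genes the numbers were 3701 and 503 as deposited and 1354 and 1334 after rescaling, so the upward balance was lost there too.

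**Figure D4:**
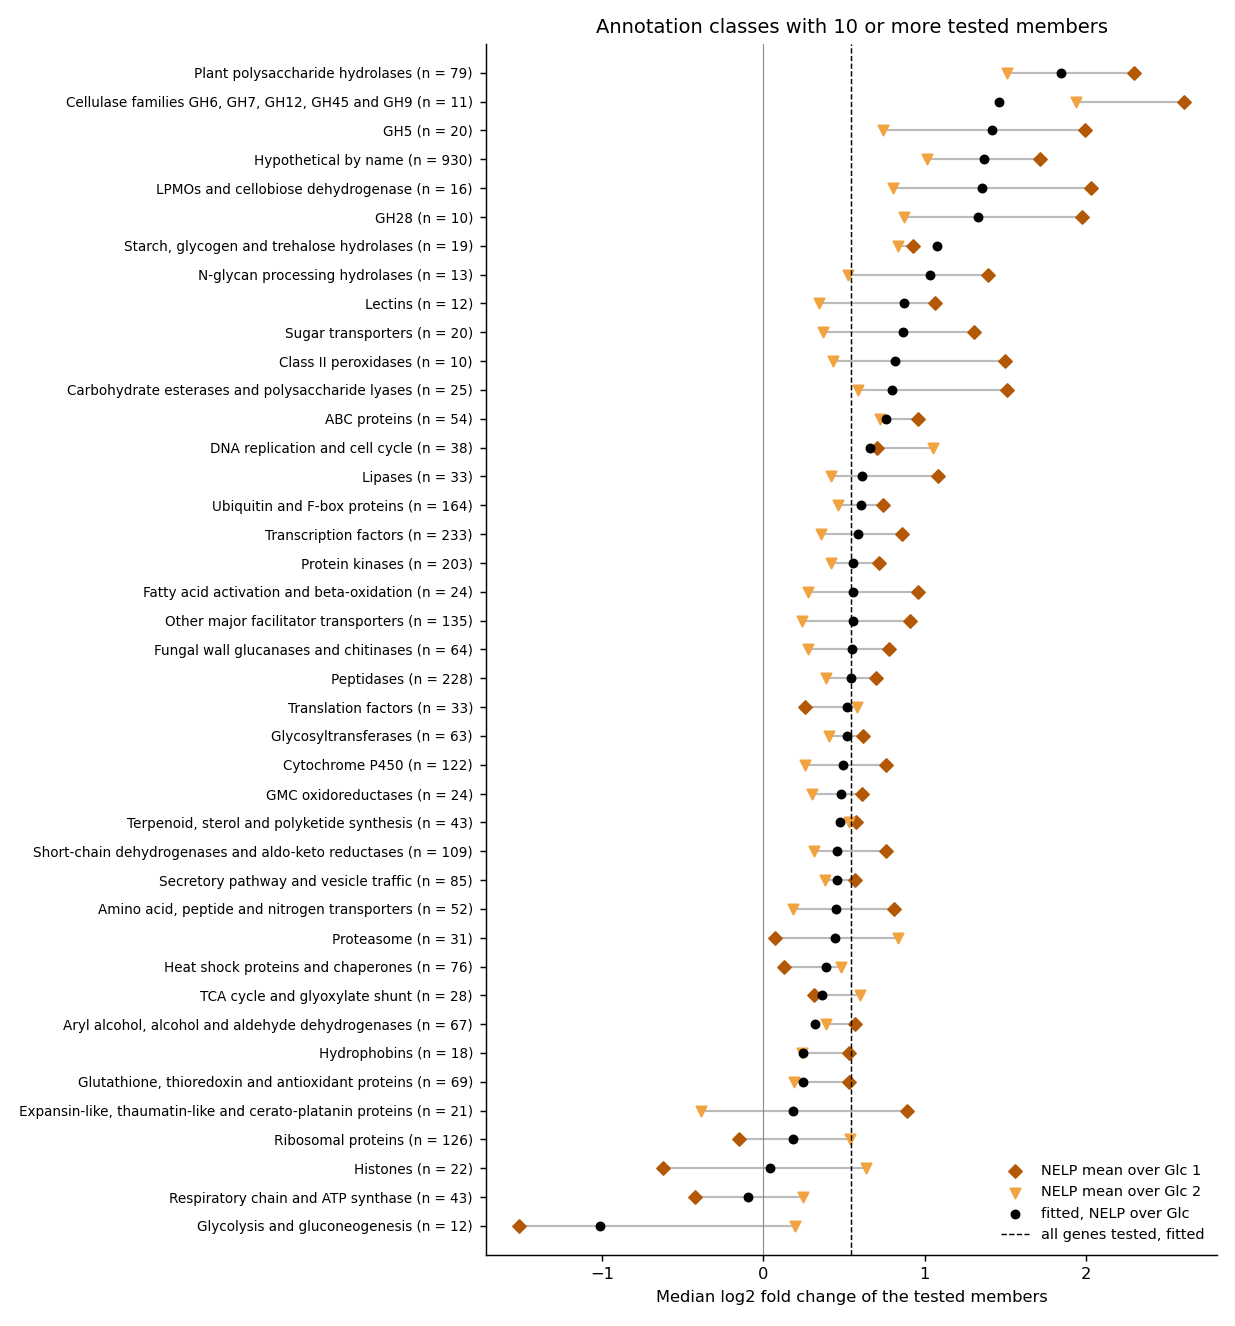
Median log2 fold change over the tested members of each annotation class with 10 or more members: black dots are the fitted NELP against Glc values, diamonds and triangles are the NELP mean against Glc 1 and Glc 2 alone, and the dashed line is the median of all genes tested. Plant polysaccharide hydrolases have the highest fitted median, while glycolysis, respiratory chain, histone, ribosomal protein and expansin-like genes lie on opposite sides of 0 against Glc 1 and Glc 2.

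Models named hypothetical gave more calls than any other annotation class on the deposited scale. Models that the deposited table names hypothetical (930 tested) gave 341 higher and 49 lower calls, or 36.7% and 5.27%. Models with another function name gave 248 and 14 of 1173 (21.1% and 1.19%). Models with only a domain description gave 144 and 23 of 5257 (2.74% and 0.438%), and models with neither 92 and 34 of 3617 (2.54% and 0.94%). Over all genes the shares were 7.52% and 1.09%. The paper's discussion uses the word for proteins with little or no homology to database entries, but its genome-wide estimate exceeds the models so named here. The basis on which these models received the name was not found in the labels, the methods or the table. It may include their levels in these libraries, so the difference between these classes is not independent evidence. After rescaling, the hypothetical models gave 44 higher and 54 lower calls, and models with another function name 63 and 20. Models with only a domain then gave 6 and 25, and models with neither 3 and 24.

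Some of these models reached levels as high as the cellulases. Phlgi1_36218 held 4313, 3727 and 3954 RPKM in NELP and 214 and 241 RPKM in Glc, with Glc libraries that differed little (log2 fold change 4.13 ± 0.23, adjusted p = 0.0037). Phlgi1_34800 held 5321, 3471 and 3676 RPKM on wood and 96.4 and 583 RPKM on glucose and was called on the deposited scale only (adjusted p = 0.041, rescaled 0.071). Phlgi1_19290 was nearly silent on glucose, at 0.628 and 2.94 RPKM, and held 119, 79.6 and 93.9 RPKM on wood (log2 fold change 5.62 ± 0.51, adjusted p = 0.014). Downward, Phlgi1_271517 held 11.6, 11.8 and 13.4 RPKM in NELP against 2559 and 1080.2 RPKM in Glc (log2 fold change -7.03 ± 0.41, adjusted p = 0.0037). Phlgi1_129398, with neither a function name nor a domain, was the second most abundant transcript of the Glc libraries, at 28439 and 4651 RPKM, and held 159, 294 and 154 RPKM on wood (log2 fold change -5.89 ± 0.80, adjusted p = 0.030). Among models with a domain only, the F-box gene Phlgi1_36159, a type of substrate adaptor for ubiquitin ligases, held 37.8, 57.1 and 48.1 RPKM on wood and 8.76 and 6.40 RPKM on glucose, and the blue copper domain gene Phlgi1_497415 held 4.64, 3.72 and 3.42 RPKM on wood and 30.5 and 124 RPKM on glucose (log2 fold changes 2.57 ± 0.30 and -3.82 ± 0.60, adjusted p = 0.022 and 0.036, both also called after rescaling).

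Of the 10 models with the highest mean RPKM in NELP, 4 were called higher and none lower, against 7.52% and 1.09% of all genes, and since they were chosen by their level on wood nothing is read from the direction. The HSP9/12 family heat shock protein Phlgi1_108674 led at 21480.0, 9701 and 11965 RPKM, and its Glc values were 139 and 5768 RPKM. Methanol oxidase, Phlgi1_120749, which oxidizes methanol and yields hydrogen peroxide, held 10759.9, 9787 and 10917 RPKM in NELP, and 99.5 and 10342 RPKM in Glc. For both genes Glc 2 was far nearer to wood than Glc 1, and neither passed the test (adjusted p = 0.12 and 0.22). Phlgi1_124367, a hypothetical model, stood at 10412, 11968 and 14022 RPKM in NELP and 2173 and 119946 RPKM in Glc, where Glc 2 alone was above and Glc 1 below all wood libraries (adjusted p = 0.86).

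Against each Glc library alone the wood response had a different size. All 3 NELP libraries were over 2-fold higher than Glc 1 at 3436 genes (31.3%), than Glc 2 at 1112 (10.1%) and than both at 801 (7.3%). Downward the counts were 721 (6.57%), 484 (4.41%) and 160 (1.46%). These are counts with no test, since each reference is a single library, and after rescaling 321 genes were over 2-fold higher and 366 over 2-fold lower than both. At 77 genes NELP was over 2-fold above Glc 1 and over 2-fold below Glc 2, and at 11 the reverse. Of the called genes, 680 of 825 and 110 of 120 passed this fold against both references, and the median fold between the Glc libraries was 1.48 and 1.58 over them, against 1.65 over all genes.

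For some lists the choice of Glc library turned the direction of the median. The glycolysis and gluconeogenesis list (12 tested) had a median log2 fold change of -1.51 against Glc 1 and 0.19 against Glc 2, and its share of summed RPKM was 0.191 to 0.209% in NELP, 0.800% in Glc 1 and 0.259% in Glc 2. Phosphoglycerate kinase, Phlgi1_110573, a glycolytic enzyme that makes ATP, held 109, 105.05 and 123 RPKM in NELP and 1406 and 112 RPKM in Glc, so that Glc 2 lay within the wood values and Glc 1 far above. Phosphoenolpyruvate carboxykinase, Phlgi1_19444, which serves gluconeogenesis, held 339, 469.7 and 330.3 RPKM on wood and 1029 and 797 RPKM on glucose, lower in every wood library than in either Glc library. It missed the threshold on the deposited scale and passed it after rescaling (log2 fold change -1.27 ± 0.29, adjusted p = 0.0522, rescaled 0.0499). Respiratory chain, histone and ribosomal protein genes changed sign in the same manner, with medians of -0.42, -0.62 and -0.15 against Glc 1 and of 0.25, 0.64 and 0.54 against Glc 2. The list of expansin-like, thaumatin-like and cerato-platanin genes turned the other way, from 0.89 to -0.39. The TCA cycle and glyoxylate list did not turn, at 0.31 and 0.60, nor did that of fatty acid activation and beta-oxidation, at 0.96 and 0.28. Cytochrome c, Phlgi1_109773, the electron carrier between respiratory complexes, held 249, 289 and 173 RPKM in NELP and 2934 and 400.4 RPKM in Glc (adjusted p = 0.11).

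Genes chosen for the largest ratio between the Glc libraries are given as a description, without a test of that ratio. Where Glc 2 was the higher, the trehalase family gene Phlgi1_129041 (GH37) held 934, 819 and 988 RPKM in NELP and 17.96 and 711 RPKM in Glc, and the tyrosinase Phlgi1_130799, a phenol oxidase of pigment formation, held 60.4, 122 and 58.1 RPKM on wood and 11.997 and 889.6 RPKM on glucose. Wood values of Phlgi1_129041 sat beside Glc 2, whereas those of Phlgi1_130799 sat between the Glc libraries. Where Glc 1 was the higher, the peroxiredoxin Phlgi1_94967, which reduces peroxides, held 64.3, 87.98 and 85.04 RPKM in NELP and 2332 and 164 RPKM in Glc. Oxalate decarboxylase, Phlgi1_66932, which breaks down the oxalate that wood decay fungi secrete, was chosen for its level in Glc and held 70.8, 113.5 and 23.4 RPKM in NELP and 545 and 13249 RPKM in Glc (adjusted p = 0.062). What set the Glc cultures apart was not tested, and the labels do not say how they differed.

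**Figure D5:**
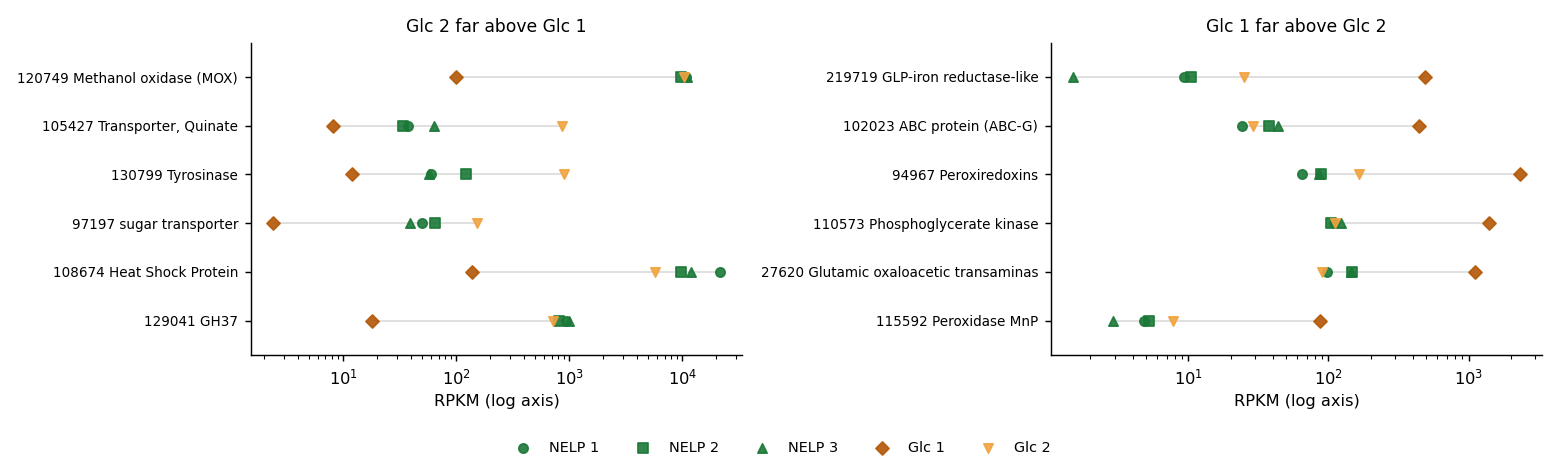
RPKM of each library on a log axis for the 6 genes with a function name that were most above Glc 1 in Glc 2 (left) and most above Glc 2 in Glc 1 (right), with at least 10 RPKM in the higher library; symbols are as named in the legend. The green NELP symbols lie near Glc 2 for methanol oxidase, GH37 and phosphoglycerate kinase, and between the Glc libraries for the quinate transporter, tyrosinase and the sugar transporter.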

How the data were processed

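RNA was purified from frozen mycelium, made into Illumina TruSeq libraries and sequenced on a HiSeq2000. The authors mapped the reads with SeqNGen to their gene models and computed the deposited RPKM values per model and library with QSeq (DNAStar), and the submitters' processing notes also name CASAVA 1.8.2. The labels and methods do not say how reads that match several models were counted, so close paralogs of a family may share reads. The table holds 11892 models, of which 11891 have values and 11824 matched the RefSeq gene table by identifier. A domain description is given for 6932 and a function name for 2223, of which 1015 are named hypothetical. Where genes with a function name were ranked, counted or chosen for the text and figures, those named hypothetical were left out.

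From the deposited RPKM, log2(RPKM + 0.5) was tested between 3 NELP and 2 Glc libraries with limma 3.58.1 in R 4.3.3, for genes that averaged 1 RPKM or more, with Benjamini-Hochberg adjustment over all of them and a threshold of 0.05. Fold changes are on the log2(value + 0.5) scale, which understates those of low genes. Adjusted p-values are limma's unless another test is named. Separate cultures are the replicates, per the labels. NELP and Glc share replicate numbers 1 and 2, but the labels state no pairing and the fit is unpaired. Depth was estimated from the smallest RPKM steps and the model spans in RefSeq, and values near 1 read per model carry large counting error. Rescaling divided each library by its median ratio to the mean log level. The fit was tested on simulated data first.

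Genes were named by a rule: the 12 largest called changes in each direction with a function name, at least 10 RPKM in the higher medium and no overlap, the leading genes without a function name, up to 3 called genes in each direction and the most abundant gene of each list, the 10 most abundant genes of each medium, and the 6 largest ratios between Glc libraries in each direction. The comparison and the 46 gene lists were chosen with earlier results of these data known, and some genes that the search words had wrongly placed were taken out of the lists by their annotation after values were seen. Alternatives were the pseudocount, no filter, rescaling, limma-trend, the replicate block, all 3 media in 1 fit and leaving out each library.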

Additional observations from a re-analysis of the deposited data

How the results depend on the processing

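Counts of higher and lower calls were 825 and 120. They became 116 and 123 after rescaling, 3237 and 412 with the ELP libraries in 1 fit, and 712 and 770 with both changes, the last chosen after seeing the data. Leaving out 1 library gave from 0 to 5397 higher and from 0 to 1241 lower calls. Pseudocounts of 0.1 and 1 and no filter gave 606 to 941 higher and 102 to 130 lower calls, and limma-trend gave 1045 higher. Over the genes in any list, each counted once, 602 calls became 171 after rescaling and 1335 with 3 media, and leaving out 1 library gave 0 to 2203. Genes over 2-fold above both Glc libraries went from 801 to 321 with rescaling and those below both from 160 to 366. The causes of these shifts were not tested.

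With the replicate number as a block the counts were 14 and 6, and 20 over the gene lists. Deviations of same-numbered libraries from their group means gave r = -0.163 and -0.208 over genes for numbers 1 and 2. With 2 Glc libraries the deviations mirror each other, so the crossed numbers gave 0.163 and 0.208. These correlations therefore cannot decide whether the numbers mark a pairing. Of 171 named genes, 124 were called. Of these, 56 lost their call after rescaling, 109 with the block, 108 without NELP 2 and all 124 without NELP 1 or without NELP 3.

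Called genes do not overlap between media, so leaving out a library cannot turn them. Several named genes that were not called turned direction with the Glc library left out, among them the GH61 gene Phlgi1_37310 and the catalase Phlgi1_83711. A further 8 that turned are given with their values. Their log2 fold changes without Glc 1 and without Glc 2 were -4.30 and 2.34 for Phlgi1_105427 (quinate transporter), -3.32 and 2.47 for Phlgi1_124367 (hypothetical), -3.55 and 2.60 for Phlgi1_130799 (tyrosinase), 2.59 and -1.51 for Phlgi1_81682 (major facilitator), 1.77 and -0.793 for Phlgi1_85208 (ABC-F protein), 0.834 and -0.871 for Phlgi1_106094 (ubiquitin), -0.996 and 1.89 for Phlgi1_18613 (expansin family), and -1.62 and 4.11 for Phlgi1_97197 (sugar transporter). Depth limits the lowest values: 1 read over 1 kb was 0.127 RPKM in Glc 1, where 656 models were at 0, against 482 to 507 in NELP.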

Other observations

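Some abundant genes of other groups were higher in every wood library than in either Glc library, as were 49.6% of all tested genes. Among them Phlgi1_99331 and Phlgi1_18178 did not pass the test, with Glc 2 between Glc 1 and wood. The glycerol uptake facilitator Phlgi1_99331 held 2432, 2260.1 and 2949 RPKM in NELP and 38.9 and 1229 RPKM in Glc (adjusted p = 0.12, limma). The hydrophobin Phlgi1_18178, a surface protein of aerial hyphae, held 199, 170.4 and 139 RPKM on wood and 6.04 and 102 RPKM on glucose (adjusted p = 0.14). Hydrophobins as a list had 1 of 18 tested members higher (5.56%, against 7.52% of all genes) and none lower, and 0 higher and 1 lower after rescaling, Phlgi1_80816, with 1.38, 1.40 and 0.963 RPKM on wood and 3.12 and 3.50 RPKM on glucose (rescaled adjusted p = 0.038, limma). The higher one was the weakly expressed Phlgi1_124694 with 11.04, 14.3 and 13.6 RPKM on wood and 1.21 and 3.05 RPKM on glucose (adjusted p = 0.036, rescaled 0.056).

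A polyketide synthase, Phlgi1_36582, of a family that builds secondary metabolites, held 153, 156 and 282 RPKM in NELP and 4.43 and 33.3 RPKM in Glc (log2 fold change 3.87 ± 0.83, adjusted p = 0.0494, rescaled 0.094). The thaumatin-like protein Phlgi1_115150 held 263, 89.9 and 329 RPKM on wood and 2.79 and 23.1 RPKM on glucose and passed only on the deposited scale (adjusted p = 0.0495, rescaled 0.096). A small heat shock protein gene differed widely within glucose: the Hsp20 gene Phlgi1_92252 held 428, 387 and 74.04 RPKM in NELP, and 29904 and 1155 RPKM in Glc (adjusted p = 0.088).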
